A study of Mus musculus with 4 samples.

Results

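The report concerns the E proteins and the Id inhibitors of thymocytes, that is the 5 genes Tcf3, Tcf12, Id1, Id2 and Id3 out of 32285 gene features in each matrix. The members were chosen by name, as the basic helix-loop-helix E protein genes Tcf3 and Tcf12 and the Id genes that antagonize them, and the rule uses no measured value. Thymocytes were profiled by droplet single-cell RNA-seq (10x Genomics, 3′ kit, version 3), in which a transcript is read at its 3′ end and counted once through a unique molecular identifier (UMI). The 2 groups of mice gave 2 libraries each. Control mice, which the labels also call WT, carried 2 floxed Tox4 alleles without a Cre (Tox4;F/F). Conditional knockout (cKO) mice carried the same 2 floxed alleles and an Lck-Cre transgene (Tox4;F/F;Lck+). Tox4 encodes a nuclear protein of the TOX family. The Cre is driven by the proximal Lck promoter, which acts in T lineage cells from the DN3 stage onwards, so other cells of the thymus keep Tox4. Per the study's methods the mice were 6 to 8 weeks old, on a C57BL/6 background and gender-matched littermates. The comparison asks how the loss of Tox4 in developing T cells changes their transcripts at each stage. The floxed exons 4 to 6 lie away from the 3′ end that the kit reads, so these counts do not check the deletion.

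E proteins are transcription factors that bind the E-box sequence as dimers, and in the thymus the products of Tcf3 (E2A) and Tcf12 (HEB) act together at the genes of antigen receptor rearrangement and of the double positive stage. Id proteins have the dimerization domain but no DNA-binding domain, so an E protein paired with an Id protein does not bind DNA. Signals from the pre-T cell receptor (TCR) and the TCR are known to induce Id3, and Id2 and Id3 together restrain E proteins during positive selection and afterwards.

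On GRCm38 with GENCODE release M21, Tcf3 lies on chromosome 10 at 80409514 to 80433647 on the minus strand, and Tcf12 on chromosome 9 at 71842688 to 72111871 on the minus strand. Id1 lies on chromosome 2 at 152736251 to 152737410 on the plus strand, Id2 on chromosome 12 at 25093799 to 25097140 on the minus strand and Id3 on chromosome 4 at 136143497 to 136145755 on the plus strand. Their identifiers in the files are ENSMUSG00000020167, ENSMUSG00000032228, ENSMUSG00000042745, ENSMUSG00000020644 and ENSMUSG00000007872 in the order of the first sentence. No other annotated gene overlaps Tcf3, Id1, Id2 or Id3. Tcf12 is overlapped by 7 unclassified gene entries on its own strand and by 4 pseudogene or miRNA entries on the other strand, and reads shared with the former could not be told apart.

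E proteins bind the letters CANNTG, so the 250 bases before each RefSeq transcript start (GRCm38.p6) were searched for them on both strands. The table matched 4 of the 5 members with 6 starts. An E-box was in 66.2% of the 32851 windows of this length in the genome, and the letters CAGCTG were in 13.0%. Matches were in 4 of the 6 windows and are shown as places where these known letters occur, with no binding measured here, each with 10 bases on either side and with the E-box in capitals, 5′ to 3′ on the gene's strand.
Tcf3, chr10:80433674-80433699, minus strand: tgggcgtggtCACTTGggggcgtggc
Tcf12, upstream start, chr9:72112044-72112069, minus strand: agatgctgccCAGCTGcgtccccgtc
Tcf12, next start, chr9:72111335-72111360, minus strand: cagggcggccCAAGTGggaggtggag
Id2, chr12:25096273-25096298, minus strand: tttgccacccCAGCTGggctctcgcc
The E-boxes began 54 bases before the start in Tcf3, 240 and 149 bases before it in Tcf12 and 196 bases before it in Id2. None of the 4 lies in an annotated exon. The window of Id3 and that of the 3rd start of Tcf12 held no CANNTG. The letters GCGTGGGCG and GCGGGGGCG, which EGR factors bind, were in 3.06% of all windows and in none of these 6.

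The 4 matrices held between 42716798 and 62007453 UMIs in 11790 to 17347 cells per library, and 33414 cells were kept after filtering, 5648 to 12027 per library. Over 10% of the UMIs were mitochondrial in 48.3% and 46.1% of the cells of control 1 and cKO 1 but in 20.6% and 23.1% of those of control 2 and cKO 2, so this measure followed the replicate number and not the genotype. Pairs of libraries shared 10 to 33 cell barcodes, at most 0.391% of the smaller one. Clusters were formed without the 5 members and named from marker lists: 552 double negative (DN), 3262 double positive blast (DPbla), 17188 DP under rearrangement (DPre), 3003 DP under selection (DPsel), 1811 CD4 single positive (CD4SP) and 869 CD8 single positive (CD8SP) cells, each name meaning cells like that stage by its markers. Every list of these 6 stages was detected in full in its own class. The same lists named the classes, so this is no test of the names. Levels are given in CPM, the UMIs of a gene per 1000000 UMIs of the class. The 5 DN markers summed to 1177 to 1384 CPM per library in DN cells. In DPbla cells all 5 were also detected, at a sum of 9.90 to 19.3 CPM. The CD8SP list summed to 2741 CPM in DPre and 2744 CPM in CD8SP cells. Markers of macrophages summed to 15.1 to 142 CPM and of neutrophils to 1.67 to 25.7 CPM in these 6 stages, against 10257 to 14726 CPM of macrophage markers in macrophage-like cells. Those of dendritic cells summed to 98.2 to 233 CPM and those of B cells to 114 to 559 CPM in the same stages.

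The level of Tcf12 peaked in rearranging DP cells. In DPre cells it stood at 647 CPM in control 1, 823 in control 2, 646 in cKO 1 and 741 in cKO 2, with a mean of 714 ± 85.1 (SD, n = 4 libraries), on 6138 to 11119 UMIs per library. The lowest of these libraries was above every library of any other stage. DPbla and DN cells held 363 ± 33.8 and 355 ± 25.6 CPM, and their libraries overlapped. The level was 273 ± 42.5 in DPsel, 138 ± 23.2 in CD4SP and 115 ± 9.43 CPM in CD8SP cells, the last pair overlapping in range although CD4SP was higher in 4 of 4 libraries. From DPbla to DPre the log2 difference within a library, on the scale of log2(CPM + 1), was 0.97 ± 0.05 (SD, n = 4), and from DPre to DPsel it was -1.39 ± 0.12, negative in 4 of 4 libraries. With the members allowed among the clustering genes the latter was -0.90.

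Tcf3 was nearly level through the DP stages and lower in the single positive cells. Its mean was 131 ± 8.94 CPM in DN, 129 ± 7.93 in DPbla, 119 ± 8.06 in DPre and 118 ± 13.4 in DPsel cells (SD, n = 4), and neighbours in this order overlapped. CD8SP cells held 83.2 and 78.9 CPM in controls and 66.8 and 66.6 CPM in cKO libraries, and CD4SP cells 74.7, 67.2, 57.3 and 68.3 CPM in the order control 1, control 2, cKO 1 and cKO 2. Every DP library was above every single positive library. The ratio of UMIs of the 2 genes was compared between stages only, since capture can differ between genes. Tcf12 gave 6.01 UMIs for each UMI of Tcf3 in DPre cells (range of libraries 5.07 to 6.61), 2.84 in DPbla, 2.33 in DPsel and 1.59 in CD8SP cells. A 3rd E protein gene, Tcf4, was at 136 ± 10.8 CPM in DN and 91.5 ± 6.56 CPM in DPre cells.

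Id3, the inhibitor induced by TCR signals, was low in DN cells and peaked in DPsel cells. DN cells held 44.2, 49.9, 62.3 and 51.4 CPM in the order of libraries above, on 25 to 111 UMIs. DPbla cells held 216 ± 34.8 CPM and DPre cells 247 ± 22.1 CPM (SD, n = 4), with overlapping ranges. DPsel cells held 801 CPM in control 1, 728 in control 2, 688 in cKO 1 and 636 in cKO 2, with a mean of 713 ± 69.5. CD8SP and CD4SP cells followed with 357 ± 43.7 and 329 ± 29.8 CPM. There were therefore 2 increases along the DP pathway, of 2.03 ± 0.33 from DN to DPbla and of 1.52 ± 0.26 from DPre to DPsel on the log2 scale, each seen in 4 of 4 libraries.

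Id2 was low before selection, and its highest stage mean was in CD8SP cells, with a range overlapping that of DPsel cells. Its level was 23.4 ± 3.76 CPM in DN, 10.0 ± 1.48 in DPbla and 15.7 ± 1.27 in DPre cells (SD, n = 4). In DPsel cells it was 158 CPM in control 1, 114 in control 2, 196 in cKO 1 and 120 in cKO 2, with the replicate 1 library above the replicate 2 library in both groups. The difference from DPre to DPsel was 3.12 ± 0.46 on the log2 scale in the named classes and 2.20 ± 0.27 when the members were allowed among the clustering genes, which gave a mean of 76.9 CPM in DPsel cells. In the largest DPsel cluster alone, an alternative chosen after the data were seen, it was 1.47 ± 0.52. CD8SP cells held 207 ± 33.4 CPM against 82.8 ± 10.6 CPM in CD4SP cells, a log2 difference of 1.31 ± 0.35 that was positive in 4 of 4 libraries. The CD8SP class is 1 cluster led by Nkg7 and Klrd1, and the 7 markers of innate lymphocytes summed to 202 to 289 CPM there against 21.9 to 42.8 CPM in CD4SP cells, whose part in the difference was not tested. Of the non-T cells, dendritic-like cells held 402 ± 66.8 CPM of Id2 and macrophage-like cells 112 ± 17.6 CPM.

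Id1 was hardly expressed at any stage. Its highest stage mean was 5.53 ± 1.11 CPM in DPre cells, from 44 to 96 UMIs per library, and its lowest was 1.34 ± 0.72 CPM in CD4SP cells, from 1 to 5 UMIs. DN cells of control 1 and CD8SP cells of control 1 gave 0 UMIs, which allow up to 5.31 and 1.81 CPM by 3 counts. A cluster of 173 T cells led by Nr4a3 and Egr3 gave 41.1, 34.8 and 17.4 CPM in control 1, control 2 and cKO 1 and 0 UMIs in cKO 2, a count that allows up to 11.9 CPM. One of 217 T cells led by Xcl1 gave 2.96, 35.7, 2.93 and 33.9 CPM in control 1, control 2, cKO 1 and cKO 2, on 1 to 15 UMIs, so its replicate 2 libraries were high in both groups.

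**Figure D1:**
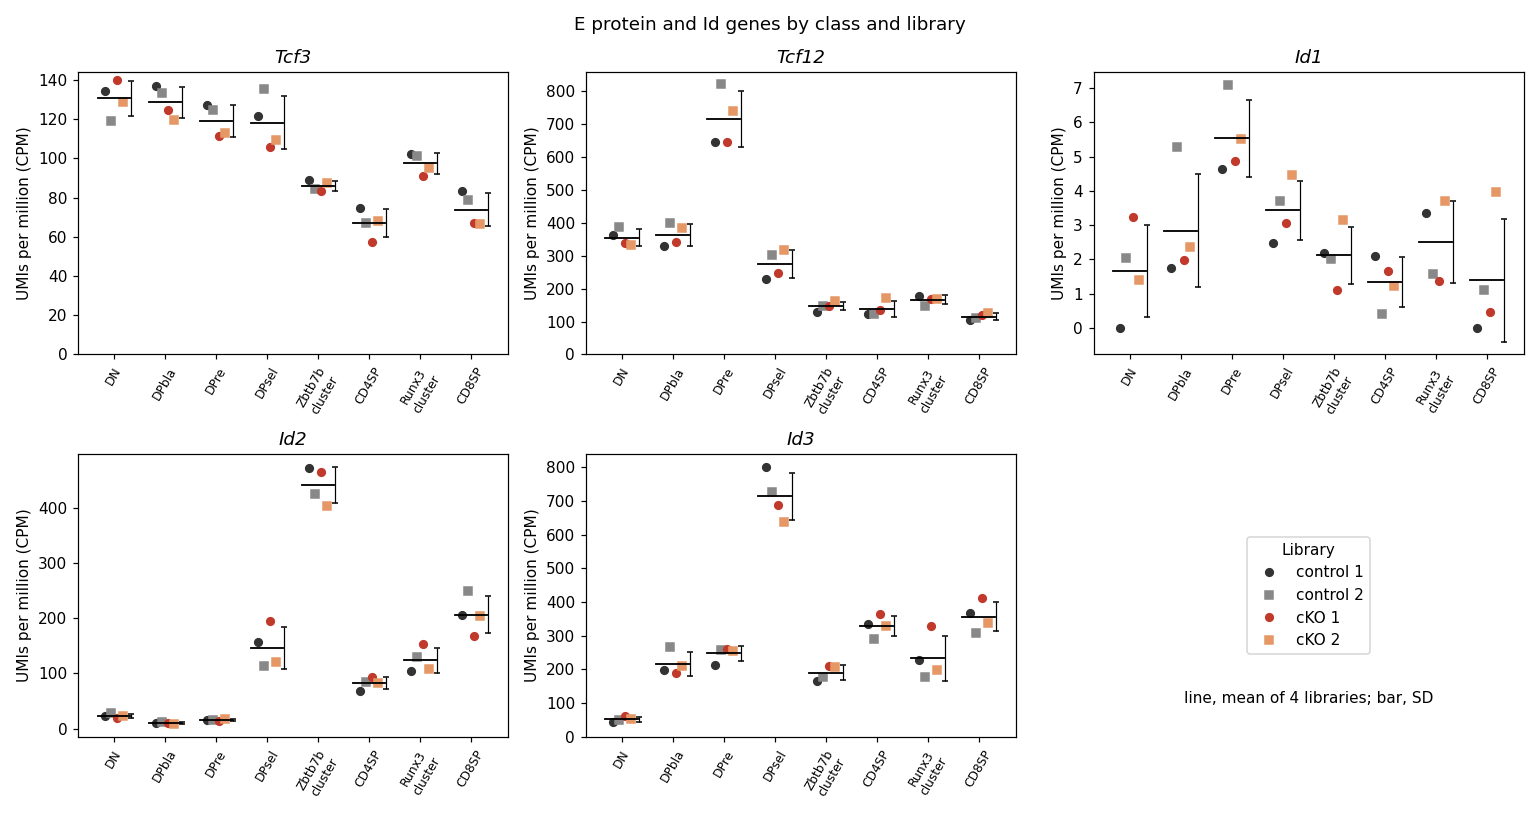
CPM (linear axes from near 0) of each member in 6 stages and 2 further T cell clusters, with 1 point per library, a line at the mean of 4 libraries and a bar of 1 SD. Among the classes drawn Tcf12 peaks at 714 CPM in DPre, Id3 at 713 CPM in DPsel and Id2 at 442 CPM in the Zbtb7b cluster, while Id1 stays under 8 CPM throughout.

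Several T cell clusters did not meet a naming rule and are described by leading genes that were chosen after they were seen. One of 696 cells was led by Itm2a, Il7r, Ckb and Zbtb7b, the factor of the CD4 lineage, and is called the Zbtb7b cluster. One of 555 cells was led by Runx3, the factor of the CD8 lineage, and is called the Runx3 cluster. In the Zbtb7b cluster Id2 was at 472, 426, 466 and 405 CPM in the order control 1, control 2, cKO 1 and cKO 2, and Id2 was itself among its 10 leading genes. Id3 in the same cells was at 190 ± 22.0 CPM (SD, n = 4). There were 0.431 UMIs of Id3 for each UMI of Id2 (range of libraries 0.349 to 0.510). In DPsel cells this ratio was 5.07, in CD4SP cells 4.02 and in CD8SP cells 1.78, and every library of these 3 classes was above every library of the Zbtb7b cluster. The Runx3 cluster held 124 ± 22.6 CPM of Id2 and 232 ± 67.6 CPM of Id3, so its Id2 level was below that of the Zbtb7b cluster by 1.84 ± 0.25 on the log2 scale, in 4 of 4 libraries. CD4SP cells had less Id2 than the Zbtb7b cluster, by a log2 difference of -2.41 ± 0.24, and more Id3, by 0.79 ± 0.16.

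DPsel cells were not of 1 kind with respect to the Id genes. The largest DPsel cluster, 2243 cells led by Hivep3 and Egr1, held 840 CPM of Id3 (750 to 929 by library) and 46.7 CPM of Id2 (27.5 to 55.7). A cluster of 299 cells led by Gm14718, Itm2a and B630019A10Rik held 464 CPM of Id2 (364 to 573) and 170 CPM of Id3 (104 to 254). Id2 was itself among its 10 leading genes. One of 247 cells led by Gm14718, Itm2a and Izumo1r held both, with 556 CPM of Id2 (488 to 635) and 717 CPM of Id3 (540 to 915). The last, 214 cells led by Nr4a3 and Nr4a1, held 393 CPM of Id3 and 33.4 CPM of Id2. The pair of clusters led by Gm14718 made up 16.8%, 17.5%, 23.2% and 17.1% of DPsel cells in the order of libraries above, and cKO 1, with the largest share, also had the highest Id2 level of DPsel cells. Tcf12 was at 320 CPM in the Hivep3 cluster and between 164 and 186 CPM in the other 3.

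**Figure D2:**
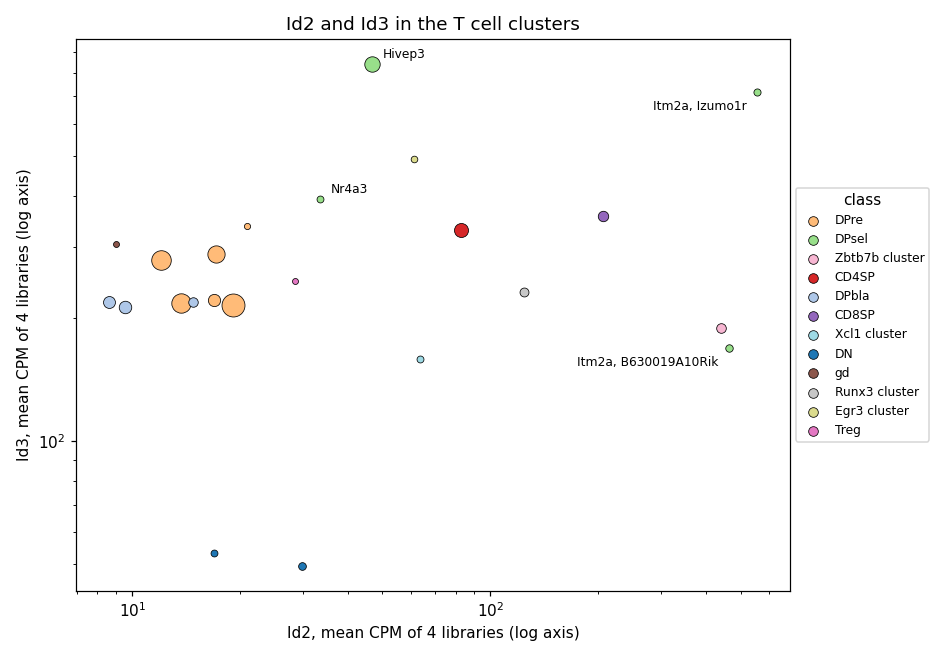
Mean CPM of Id3 against mean CPM of Id2 over 4 libraries (both log axes), with 1 circle per T cell cluster, circle area growing with the number of cells and color showing the class. The DPsel clusters spread from high Id3 with low Id2 (Hivep3, 840 and 46.7 CPM) to low Id3 with high Id2 (Itm2a, B630019A10Rik, 170 and 464 CPM), and DN clusters are low in both.

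The balance between the groups of genes was read as the UMIs of Id1, Id2 and Id3 over those of Tcf3 and Tcf12. It was 0.159 ± 0.018 in DN, 0.463 ± 0.046 in DPbla and 0.324 ± 0.032 in DPre cells (SD, n = 4 libraries). DPsel cells gave 2.74 in control 1, 1.94 in control 2, 2.51 in cKO 1 and 1.78 in cKO 2, and each library was above every library of the 3 earlier stages. CD8SP cells had 2.99 ± 0.12, CD4SP cells 2.03 ± 0.28, the Zbtb7b cluster 2.73 ± 0.23 and the Runx3 cluster 1.37 ± 0.33. Capture differs between genes, so a ratio of 1 has no meaning of its own and only the order of classes was read. In γδ-like T cells (80 cells, 15 to 27 per library) the ratio was 0.516 ± 0.134, with Tcf12 at 498 ± 67.9 CPM and Id3 at 304 ± 52.9 CPM.

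**Figure D3:**
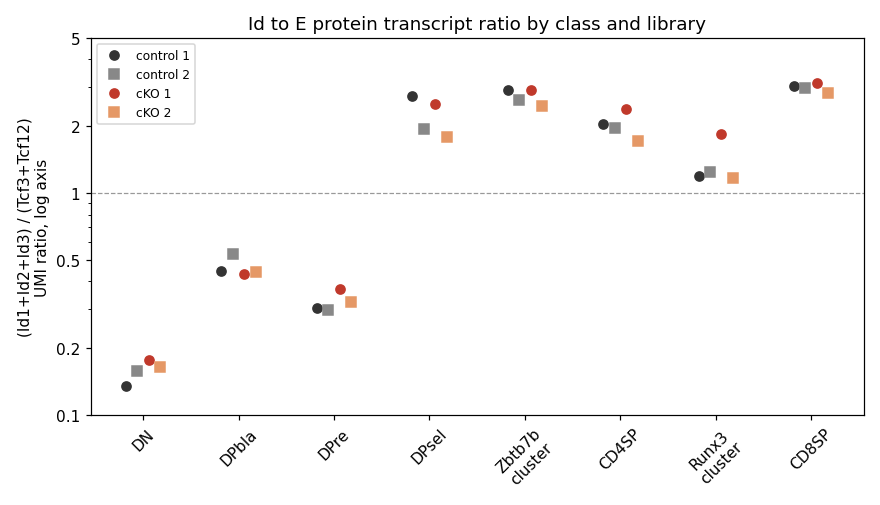
Ratio of Id to E protein UMIs (log axis) in each class, with 1 point per library and a dashed line at equal UMIs. DN, DPbla and DPre libraries lie between 0.135 and 0.532, and DPsel, CD4SP, CD8SP and both unnamed clusters between 1.17 and 3.12.

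Cells thinned to 2000 UMIs gave the same picture per cell. Tcf12 was seen in 73.2% of DPre cells (80.5% before thinning, 3420 of 17188 cells too shallow and left out), in 52.1% of DPbla, 41.5% of DPsel and 22.4% of CD8SP cells. Id3 was seen in 9.31% of DN, 33.7% of DPbla, 34.4% of DPre and 58.9% of DPsel cells. Id2 was seen in 1.99% of DPbla, 2.91% of DPre, 13.9% of DPsel and 43.3% of Zbtb7b cluster cells. Erythroid-like cells served as the background, with 6.25% for Tcf12, 10.9% for Id3 and 3.12% for Id2 among 64 thinned cells. The 6 erythroid markers summed to 812776 CPM in these cells. That lowers the shares and CPM of all other genes there, so this background can be too low. The share of Id3 in DN cells was under this background. For Id2 the background is poorly known, since cKO 1 held all of its thinned cells with a UMI. The erythroid-like mean of 5.50 CPM is lowered in the same way. It therefore cannot tell whether Id2 in DPbla and DPre cells lay above a background. Median depth before thinning was 4159 UMIs in erythroid-like, 2612 in DPre, 3267 in DPsel and 9199 in DPbla cells. The share of Id1 was 1.16% in DPre cells.

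Both inhibitors were seldom seen in the same DPsel cell. Among thinned DPsel cells with an Id3 UMI, 10.5%, 7.81%, 14.1% and 9.87% also had one of Id2 in control 1, control 2, cKO 1 and cKO 2. Among those without Id3 the shares were 19.5%, 18.3%, 23.7% and 18.4%, higher in 4 of 4 libraries. These are descriptions of sparse counts from cells of a shared library.

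Genes whose stage profile was most like each member were ranked by Pearson's r of log2(CPM + 1) over 24 sums (6 stages in 4 libraries) among 8076 genes with a mean of at least 10 CPM. Tcf12 was most like Gm37065 (r = 0.97), 1810059H22Rik (0.97) and Atp13a3 (0.97). Tcf3 was closest to Pafah1b3 (0.97), Zfp422 (0.95) and Smim7 (0.95). For Id2 the nearest were Lcp1 (0.98), Arpc1b (0.96) and Timp2 (0.96), and for Id3 Cd6 (0.97), Gsn (0.96) and Arhgdib (0.96). Between members r was 0.79 for Tcf3 with Tcf12, 0.58 for Id2 with Id3, -0.78 for Tcf12 with Id2 and -0.32 for Tcf12 with Id3. The sums of a stage share its cells and those of a library its depth, so these values describe the profiles only.

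None of the 5 members was called between genotypes in any class by edgeR's quasi-likelihood test on the 4 sums, at an adjusted p under 0.05 over all genes tested. Of 39 fits of a member in a class, 3 had an unadjusted p under 0.05, and DESeq2 called 0. Among all genes this held for between 556 of 7730 (Zbtb7b cluster, the lowest share) and 2772 of 12630 (the 3 DP stages summed, the highest), so the members did not stand out. The smallest adjusted p was 0.463 (edgeR), for Id2 in CD8SP cells. Calls were few among all genes as well: 0.39% of genes tested in DN, 2.66% in DPbla and 2.25% in DPre cells, then 0.455% for DPsel, 0.449% for CD4SP and 0.636% for CD8SP cells. In the 3 DP stages summed 7.28% were called, in the Zbtb7b cluster 0.0906% and in the Runx3 cluster 0.228%. On simulated sums of DPre cells the test recovered 82% of genes changed by 1 and 20% of genes changed by 0.5 on the log2 scale (11803 genes), and for DN cells 53% and 15% (8458 genes), so differences of the size seen here would mostly not be called.

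Tcf12 differed little between genotypes where it is highest. Its log2 fold change, cKO over control, was -0.05 ± 0.11 (SE) in DPre cells, where the ranges of the groups overlapped. It was 0.04 ± 0.12 in DPbla and 0.11 ± 0.14 in DPsel cells. In CD4SP cells Tcf12 was at 124 and 123 CPM in controls and at 134 and 172 CPM in cKO libraries, a log2 fold change of 0.29 ± 0.13 with an adjusted p of 0.535 (edgeR), which was 0.10 without cKO 2 and 0.45 without cKO 1.

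The Tcf3 levels of cKO libraries lay below those of control libraries without overlap in DPbla, DPre, DPsel and CD8SP cells, by small amounts that were not called. DPre cells held 127 and 124 CPM in controls and 111 and 113 CPM in cKO libraries, a log2 fold change of -0.13 ± 0.098 (SE). The values were -0.10 ± 0.10 in DPbla, -0.24 ± 0.13 in DPsel and -0.30 ± 0.15 in CD8SP cells, with adjusted p between 0.586 and 0.724 (edgeR) over these 4 classes. In DPsel cells the value was -0.33 without control 1 and -0.13 without control 2. In CD8SP cells it turned to 0.11 at a mitochondrial limit of 5%. Groups did not overlap for 47.0% of all genes tested in DPbla, 47.0% in DPre, 38.9% in DPsel and 38.1% in CD8SP cells, and the classes come from the same 4 mice.

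Id3 in DPsel cells was at 801 and 728 CPM in controls and 688 and 636 CPM in cKO libraries, so the groups did not overlap, as was the case for 38.9% of all genes tested in DPsel cells. On the log2 scale the cKO level lay at -0.18 ± 0.10 (SE) relative to control (adjusted p = 0.630, edgeR). In DPre cells it was 0.16 ± 0.11 and in DPbla cells -0.18 ± 0.13, both with overlapping groups. Without control 1 these were 0.020 and -0.40, and without control 2 they were 0.31 and 0.11. Id2 in CD8SP cells was at 206 and 249 CPM in controls and at 167 and 205 CPM in cKO libraries, a log2 fold change of -0.32 ± 0.13 with an adjusted p of 0.463 (edgeR), which was -0.17 without control 2 and -0.46 without control 1. In DPsel cells Id2 had a log2 fold change of 0.23 ± 0.17 with overlapping groups, which was 0.57 and called without cKO 2 and -0.14 and not called without cKO 1. Id1 passed the filter on low counts in DPbla and DPre cells only among the stages, with log2 fold changes of -0.70 ± 0.44 and -0.15 ± 0.26 on 8 to 96 UMIs per library. Without control 2 they turned to 0.42 and 0.22, and without control 1 they were -1.24 and -0.42. Id3 in the Runx3 cluster had a log2 fold change of 0.39 ± 0.18 (adjusted p = 0.573, edgeR), which was 0.72 and called without cKO 2 (adjusted p = 0.0352, edgeR) and -0.030 without cKO 1.

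**Figure D4:**
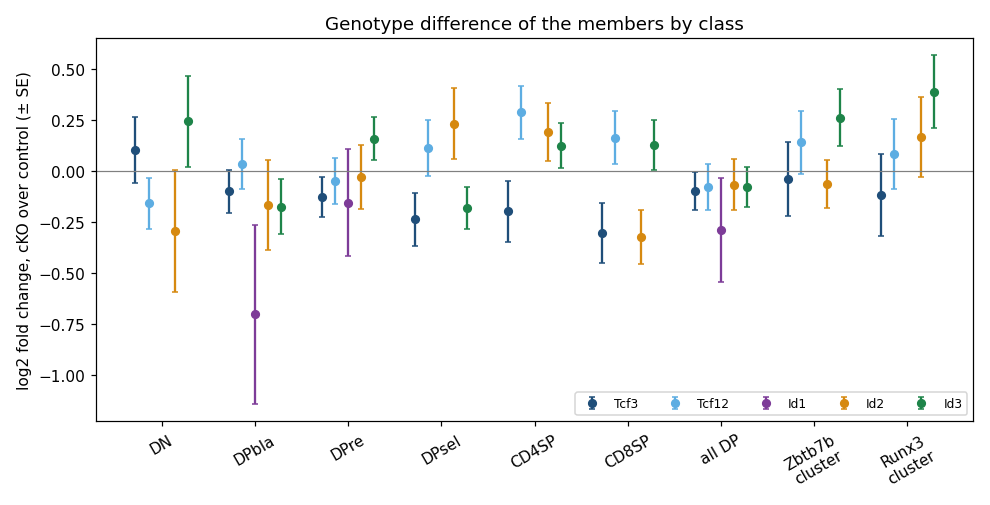
Log2 fold change of each member, cKO over control, with its approximate SE (bars) in 6 stages, the 3 DP stages summed and 2 unnamed T cell clusters. Values lie between -0.70 (Id1 in DPbla) and 0.39 (Id3 in the Runx3 cluster), and none was called.

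Whether the difference from DPre to DPsel itself varied with genotype was tested in 1 fit with a term for each library, in which 0.0615% of 11384 genes were called. The log2 step of Id3 was 1.90 and 1.49 in control 1 and control 2 and 1.39 and 1.32 in cKO 1 and cKO 2, smaller in both cKO libraries. The difference of the steps, cKO minus control, was -0.34 ± 0.083 (SE), with an unadjusted p of 0.000297 from edgeR and an adjusted p of 0.145, so it was not called. It was called without a filter on low counts (adjusted p = 0.00268, edgeR). In the largest DPsel cluster alone, an alternative chosen after the data were seen, it was also called (-0.33 ± 0.076, adjusted p = 0.0288, edgeR). It was not called at resolution 1.5 (-0.30, adjusted p = 0.540, edgeR) or at a mitochondrial limit of 5% (-0.38, adjusted p = 0.143, edgeR). Nor was it called with DESeq2's size factors (-0.35, adjusted p = 0.0740, edgeR). It was -0.17 without control 1, -0.55 without control 2, -0.36 without cKO 1 and -0.30 without cKO 2. For Tcf12 the difference was 0.16 ± 0.077, for Id2 0.22 ± 0.19, for Tcf3 -0.12 ± 0.11 and for Id1 0.48 ± 0.51, with adjusted p of at least 0.858 (edgeR). For Id2 it was 0.77 without cKO 2 and -0.21 without cKO 1, and for Tcf12 it was 0.064 and 0.24.

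Of the 8 genes known to be activated by E proteins that are reported here, 4 (Rag1, Rag2, Cd4 and Cxcr4) had their highest stage mean in DPre cells, as Tcf12 did, and the other 4 in DN cells. For Dntt, the terminal transferase of receptor rearrangement, the means of DN and DPre cells were close, at 1497 and 1492 CPM, and DPre was higher in both cKO libraries. Rag1, the recombinase gene, was at 2091 CPM in DPre cells against 586 in DPbla and 200 in DPsel cells, and Rag2 at 217, 120 and 28.8 CPM (means of 4 libraries). Both are among the markers that named the classes. Ptcra, the pre-TCR alpha chain, was at 282 CPM in DN and 57.9 CPM in DPre cells. Between genotypes, 2 of 8 were called higher in DPre cells and none lower, and 1 was called higher and 1 lower in DPbla cells. The median log2 fold change of the list was -0.05 in DPre and -0.13 in DPbla cells, where those of all genes were 0.00 and -0.00. Notch1, a receptor of T lineage commitment, was at 68.2 and 55.5 CPM in controls and 115 and 110 CPM in cKO libraries of DPre cells, so it rose by 0.90 ± 0.12 (SE) with an adjusted p of 0.00065 (edgeR). Notch3 stood at 11.0 and 14.4 CPM against 22.7 and 26.5 CPM, a log2 fold change of 0.98 ± 0.16 with an adjusted p of 0.00478 (edgeR). Both calls in DPre cells held in 12 of 12 alternatives. Both genes were higher in DN than in DPre cells, with Notch1 at 533 and 87.1 CPM and Notch3 at 152 and 18.7 CPM. The 5 DN markers summed to 20.4 and 18.1 CPM in controls and 32.7 and 28.2 CPM in cKO libraries of DPre cells, and to 13.7 and 9.90 against 19.3 and 18.2 CPM in DPbla cells, so they were higher in both cKO libraries, and their part in these results was not tested. In DN cells themselves they summed to 1177 to 1384 CPM. In DPbla cells Notch1 rose by 0.56 ± 0.11, while Cd4, the coreceptor gene, fell by 0.46 ± 0.11, with adjusted p of 0.0111 and 0.0354 (edgeR). The calls in DPbla cells were lost without cKO 2 for both genes, without control 2 for Notch1 and without control 1, without cKO 1 or at a mitochondrial limit of 5% for Cd4. Ptcra, Rag1 and Rag2 in DPre cells had log2 fold changes of -0.24 ± 0.15, -0.13 ± 0.094 and 0.13 ± 0.10 and were not called.

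**Figure D5:**
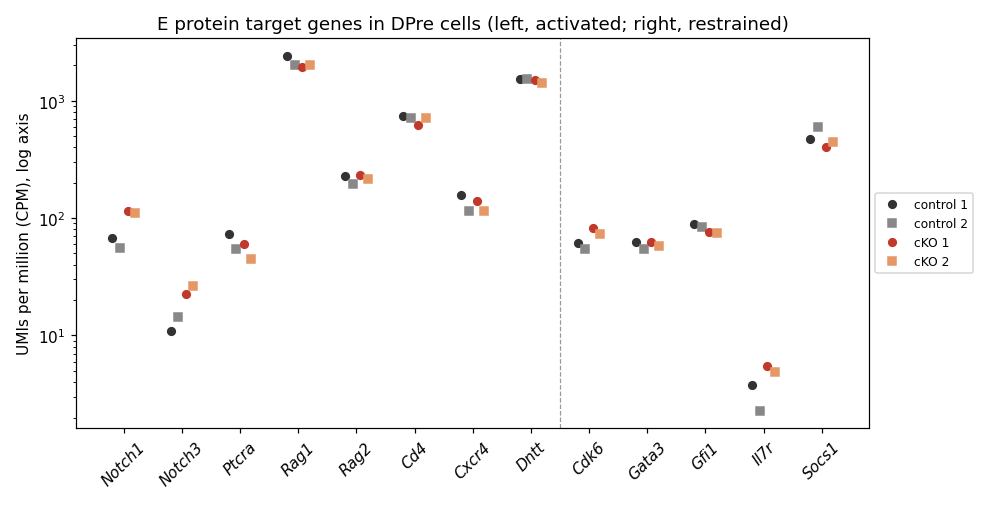
CPM (log axis) of 8 genes known to be activated (left of the dashed line) and 5 known to be restrained (right) by E proteins in DPre cells, with 1 point per library. Notch1, Notch3 and Cdk6 are higher in both cKO libraries and were called, and the other 10 were not.

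Of 5 genes known to be restrained by E proteins, Cdk6, a kinase of the cell cycle, was called higher in DPbla and DPre cells. It was at 63.9 and 74.1 CPM in controls and 99.0 and 104 CPM in cKO libraries of DPbla cells, a log2 fold change of 0.60 ± 0.12 with an adjusted p of 0.0124 (edgeR), and 0.46 ± 0.11 in DPre cells with an adjusted p of 0.0481 (edgeR). The call in DPre cells was lost in 6 of 12 alternatives, among them without control 2 and without cKO 1, and that in DPbla cells in 3, without control 1, without cKO 2 and at a mitochondrial limit of 5%. Socs1, an inhibitor of cytokine signaling, fell by 0.51 ± 0.11 in DPbla cells with an adjusted p of 0.0173 (edgeR), a call lost without control 2, without cKO 1, without cKO 2 and at a mitochondrial limit of 5%. Gfi1 and Gata3 were not called in any stage, with values of -0.15 ± 0.11 and 0.07 ± 0.11 in DPre cells. Il7r was at 3.79 and 2.29 CPM in controls and 5.48 and 4.91 CPM in cKO libraries of DPre cells and was not called.

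The list of TCR-induced genes holds Egr factors, which are known to induce Id3, and surface responses to the signal such as Cd69 and Cd5. The Egr genes were high in DPsel cells, where Egr1 averaged 335 CPM, Egr2 58.1 and Egr3 29.3 CPM, against 23.7, 1.60 and 1.26 CPM in DPre cells. Egr1, Nr4a1, Cd69 and Cd5 are markers of the DPsel class. In DPsel cells 1 of 6 was called. Cd5, a negative regulator of TCR signaling, was at 1090 and 913 CPM in controls and 714 and 701 CPM in cKO libraries and fell by 0.47 ± 0.10 with an adjusted p of 0.0295 (edgeR), a call lost without control 1, without control 2, without cKO 2 and at a clustering resolution of 1.5. No gene of this list was called in DN, DPbla, DPre, CD4SP or CD8SP cells.

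Of 11 partners and cofactors 5 to 7 passed the filter in each stage and none was called in any of the 6 stages. Tcf4 in DPre cells had a log2 fold change of 0.09 ± 0.11, and Id4 and Tal1 did not pass. Of 7 genes of BMP and TGF-beta signaling none was called in any class, with Bmpr1a at 0.842, Bmpr2 at 3.75 and Tgfbr1 at 52.2 CPM in DPre cells and log2 fold changes there of -0.36 ± 0.49, 0.45 ± 0.30 and 0.01 ± 0.12. Of 5 lineage factors Runx3 was called higher, with 9.80 and 8.36 CPM in controls and 17.6 and 17.9 CPM in cKO libraries of DPre cells, a log2 fold change of 1.01 ± 0.17 and an adjusted p of 0.00443 (edgeR), a call lost at a mitochondrial limit of 5% (0.78, adjusted p = 0.215). In DPbla cells it was 1.03 ± 0.19 with an adjusted p of 0.00905 (edgeR), a call lost without control 1, without cKO 2 and at that limit. Zbtb7b and Bcl11b in DPre cells had 1.02 ± 0.43 on 0.814 to 1.98 CPM and 0.15 ± 0.084 and were not called. No gene of the 6 lists was called in DN, CD4SP or CD8SP cells, nor in the Zbtb7b or the Runx3 cluster.

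In the 3 DP stages summed, 8 genes reported from the lists were called, with more UMIs behind each value but with stages mixed. Among all genes 7.28% of 12630 were called there, the highest share of any class. By list it was 1 of 9 partners and cofactors, 2 of 8 activated and 2 of 5 restrained genes tested. Of the TCR-induced genes it was 2 of 6, of the BMP and TGF-beta genes 0 of 7 and of the lineage factors 1 of 4. Higher in cKO libraries were Notch1 (0.82), Notch3 (0.87), Cdk6 (0.51), Runx3 (0.99) and Hes1, a repressor downstream of Notch receptors (1.09), all as log2 fold changes. Lower were Socs1 (-0.42), Cd5 (-0.55) and the activation marker Cd69 (-0.45). The calls of Notch1 and Runx3 held in 12 of 12 alternatives. That of Hes1 was lost in 6 of 12, namely without each of the 4 libraries, with DESeq2 and at a mitochondrial limit of 5%, that of Notch3 without cKO 2, that of Cdk6 without cKO 1 and that of Cd5 without cKO 2. Those of Socs1 and Cd69 were lost without cKO 1, and also without control 2 or cKO 2 for Socs1 and without control 1 for Cd69. Of the 5 genes called higher, Notch1, Notch3, Cdk6 and Hes1 had their highest stage mean in DN cells, and Runx3 had it in CD8SP cells but was also higher in DN (64.6 CPM) than in DPre cells (13.4 CPM). The DN markers summed to 18.4 and 16.3 CPM in controls and 26.2 and 23.0 CPM in cKO libraries of these summed stages.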

How the data were processed

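The authors deposited raw UMI counts per gene and cell for each of 4 libraries, made with Cell Ranger 6.1.1 at default parameters on mm10 (GRCm38) per the file headers and the study's methods. Cells with at least 200 genes and at most 10% mitochondrial UMIs were kept, the 2.5% of cells at either end of the UMI range were removed, and the 5% with the highest doublet scores were removed per library. Cells were clustered with scanpy 1.11.5 and leidenalg 0.10.2 (3000 variable genes without the 5 members, 30 components, 20 neighbours, resolution 1) and 35 clusters were named from 15 marker lists. UMIs were summed per library and class, so that the library is the replicate, and a class needed 30 cells in each to be tested. Levels and ratios had no such minimum. They rest on 15 to 27 cells per library for γδ-like and 9 to 48 for erythroid-like cells. Levels are UMIs per 1000000 UMIs of the class (CPM). Sums were tested with edgeR 4.0.16 (R 4.3.3, TMM, filterByExpr, quasi-likelihood test, Benjamini-Hochberg adjustment over all genes tested, threshold 0.05). SE is approximate. DESeq2 1.42.0, other scalings, filters and cell classes and leaving out each library were the alternatives. With 2 against 2 libraries an exact two-sided permutation test cannot go below p = 0.333, so none was used. Comparisons between stages have no p-value, since the classes were cut from the same cells.

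The 5 members and the 6 gene lists were chosen with earlier results of these data known, although the rule for the members uses their names alone. The text names the members in every class, the first 3 of each list, the called genes of each list and the 3 genes most like each member, and Id1 was left out of the last because of its low counts. Further genes are named for the clusters they lead. An item of the lists is not reported here. Libraries of a group differed beyond sampling noise (chi-square per degree of freedom 12.4 in controls and 16.7 in cKO). Per the study's text the libraries come from pairs of control and cKO mice, so the mouse is the replicate. The edgeR test was checked on simulated counts. Intervals from a count of 0 use 3 counts and cover counting error only. Promoter windows are RefSeq's (GRCm38.p6) and positions GENCODE's (release M21).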

Additional observations from a re-analysis of the deposited data

How the results depend on the processing

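No member was called between genotypes under the replicate block, where the smallest adjusted p was 0.175 (edgeR). There 7 fits of a member had an unadjusted p under 0.05 (edgeR), against 3 without the block. With the block, 67, 1069, 1086, 190, 120 and 150 genes were called in the 6 stages from DN to CD8SP, 2149 in the DP stages summed, 52 in the Zbtb7b and 44 in the Runx3 cluster. Libraries of the same number deviated together by a correlation of 0.104 (DN) to 0.363 (DP summed), and the study analysed pairs of littermate control and cKO mice, but the sources used here do not say which numbers form a pair, so the fit without the block was kept. DESeq2's test called 7 genes in DN, 23 in DPsel, 16 in CD4SP, 8 in CD8SP, 1 in the Zbtb7b and 0 in the Runx3 cluster. Without a filter on low counts 80, 604, 627, 102, 0 and 122 genes were called in the 6 stages from DN to CD8SP, 1408 in DP summed, 43 and 28 in the Zbtb7b and Runx3 clusters and 32 for the step.

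A mitochondrial limit of 5% left under 30 cells in a library for DN and the Zbtb7b and Runx3 clusters, which were not run, and gave 123 calls in DPbla, 1 in CD4SP, 2 in CD8SP and 471 in DP summed. Removing the top 10% of doublet scores gave 11, 21, 10 and 11 calls in DN, CD4SP, CD8SP and the Zbtb7b cluster, a resolution of 1.5 gave 0, 29, 19 and 29 in DN, DPsel, CD4SP and CD8SP, and allowing the members among the clustering genes gave 20, 27 and 36 in DN, CD4SP and CD8SP. For the step, 13 genes were called with DESeq2's size factors, 3 at resolution 1.5 and 21 in the largest DPsel cluster alone. Leaving out each library gave 26 to 79 calls in DN, 34 to 324 in DPbla and 320 to 469 in DPre, 0 to 80 for DPsel, 39 to 83 for CD4SP and 15 to 134 for CD8SP, 175 to 857 in DP summed, 9 to 39 in the Zbtb7b cluster, 11 to 30 in the Runx3 cluster and 3 to 28 for the step. The cause of these shifts was not tested.

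The sign of small fold changes turned at a 5% mitochondrial limit for Tcf12 in DPbla (-0.0038) and Tcf3 in CD8SP (0.11) and with members allowed for Id2 in DPre (0.0010). Over the left-out libraries Tcf12 ranged from -0.12 to 0.23 in DPbla, -0.22 to 0.15 in DPre, -0.086 to 0.35 in DPsel, -0.25 to 0.11 in DP summed and -0.050 to 0.21 in the Runx3 cluster. Id1 ranged from -1.24 to 0.42, -0.42 to 0.22 and -0.62 to 0.19 in DPbla, DPre and DP summed. Id2 ranged from -0.34 to 0.085 in DPbla, -0.17 to 0.084 in DPre, -0.14 to 0.57 in DPsel, -0.21 to 0.073 in DP summed, -0.18 to 0.039 in the Zbtb7b cluster and -0.10 to 0.41 in the Runx3 cluster. Id3 ranged from -0.40 to 0.11 in DPbla, -0.050 to 0.28 in CD8SP, -0.20 to 0.034 in DP summed and -0.030 to 0.72 in the Runx3 cluster.

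The step from DPre to DPsel was -0.12 for Tcf3 and -1.04 for Id1 at the 5% limit, -0.90 for Tcf12 and 2.20 for Id2 with members allowed, and 0.084 for Tcf3, -1.16 for Tcf12, -0.97 for Id1 and 1.47 for Id2 in the largest DPsel cluster alone. The difference of the steps of Id3 was -0.33 without a filter and -0.33 in that cluster, both called. Over the left-out libraries it was -0.55 to -0.17, against -0.21 to 0.77 for Id2, -0.21 to 0.0040 for Tcf3 and 0.064 to 0.24 for Tcf12. The low UMI counts of Id1 limit what can be said of it at any stage.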
